A study of Homo sapiens with 4 samples.

Results

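The genes described here form the G1 control of the cell cycle: the D cyclins CCND1, CCND2 and CCND3, their kinases CDK4 and CDK6, the inhibitors CDKN2A, CDKN2C, CDKN1A and CDKN1B, and RB1, the protein that the kinases act on. They were chosen by gene symbol, and 9 of the 10 had a named probe set among the 18377 genes of the array. The expression of CDKN2C was not analysed here. Each of the 9 had 1 probe set, so that no choice among probe sets entered their values. Total RNA of 4 human lines of B-cell precursor acute lymphoblastic leukaemia (ALL) had been hybridised, with 1 array for each. The first group holds RS4;11 and SEM, whose translocation t(4;11) left the MLL gene rearranged, and NALM6 and REH lack it. All were cultured in RPMI medium with fetal bovine serum and taken before confluency, and no agent is named for any of them. The comparison asked how transcript levels of ALL lines with and without the MLL rearrangement differ. Each group is 2 lines, so that the cell line is the replicate and every other difference between the lines is part of the contrast. A p-value sets the group difference against the spread between these lines and arrays, drawn towards the spread of all genes.

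In early G1, D cyclins bind CDK4 or CDK6 and the complex phosphorylates RB1, which then releases E2F transcription factors to switch on genes of DNA replication. INK4 proteins, among them p16 from CDKN2A, bind the kinases and block them. CIP/KIP proteins, p21 from CDKN1A and p27 from CDKN1B, act mainly on CDK2 complexes, and CDKN1A is a classic gene of the DNA damage response. Loss of CDKN2A on the short arm of chromosome 9 is among the most frequent lesions of B-cell precursor ALL, and B-cell precursors rely chiefly on cyclin D3 and CDK6.

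Values are log2 expression values as deposited. The median over all probe sets was 6.40 to 6.46 on the arrays and the 25th percentile 4.97 to 5.02, so that a value near 5 lies among the dimmest probe sets and a fold against it is compressed. Levels of different genes come from different probes and are not set against each other. In cultures, fewer cells with a transcript and less of it per cell cannot be told apart. Of 10 B-cell precursor markers 8 were measured: PAX5 lay between 11.61 and 11.90, CD22 between 11.10 and 11.65 and CD79A between 11.05 and 12.35, while VPREB1 ranged from 5.51 in REH to 11.35 in RS4;11. SEM was the lowest line for CD79B (7.63 against 9.99 to 11.02), IGLL1 (8.66 against 10.70 to 10.78) and RAG1 (6.33 against 7.24 to 8.97). It was also lowest for CD79A, CD22 and TCF3 (9.92 against 9.95 to 10.56), and it was the highest line for PAX5. In SEM the markers' median deviation from the average of the remaining 3 lines was -1.29, and its part in the values of SEM was not tested. Of 7 T and NK cell markers, 6 lay between 4.38 and 5.35 in every line, and CD3D did not exceed 4.90. NKG7 was at 10.99 (RS4;11), 9.13 (SEM), 6.39 (NALM6) and 7.11 (REH), and its part in the group differences was not tested. All 6 myeloid markers were measured, from 4.59 to 9.65, with LYZ the highest and CD14 at most 4.81. In 3 of them the lines spanned at least 4-fold. LYZ was at 8.27 (RS4;11), 8.50 (SEM), 9.65 (NALM6) and 5.80 (REH). MPO was at 7.57 in REH and at most 4.79 elsewhere, and CSF1R was at 7.69 in SEM and at most 5.88 elsewhere. Their part in the values of these lines was not tested. The 3 measured erythroid markers lay between 4.50 and 6.33, and the 6 epithelial and stromal markers between 4.61 and 8.50.

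Across the 9 genes, the kinases, CCND1 and RB1 were nearly level over the lines, and 3 others stood out in single lines or in a group. CDKN2A was present in SEM and near the array floor in the other lines, CCND2 was highest in REH, and CDKN1A was higher in both lines with the translocation. The highest and lowest line differed at least 2-fold in 4 of the 9 genes (CCND2, CCND3, CDKN2A and CDKN1A), against 19.3% of all genes. They differed at least 4-fold in 1 (CDKN2A), against 7.56%. The median span from lowest to highest line was 0.57 on the log2 scale for the 9 genes and 0.38 over all genes. The dim limit, the median of all gene values (6.75), was reached in at least 1 line by 7 of the 9 genes. Over all 18377 genes it was reached by 10259. Dim values compress a span, and no share over brighter genes alone is given.

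**Figure D1:**
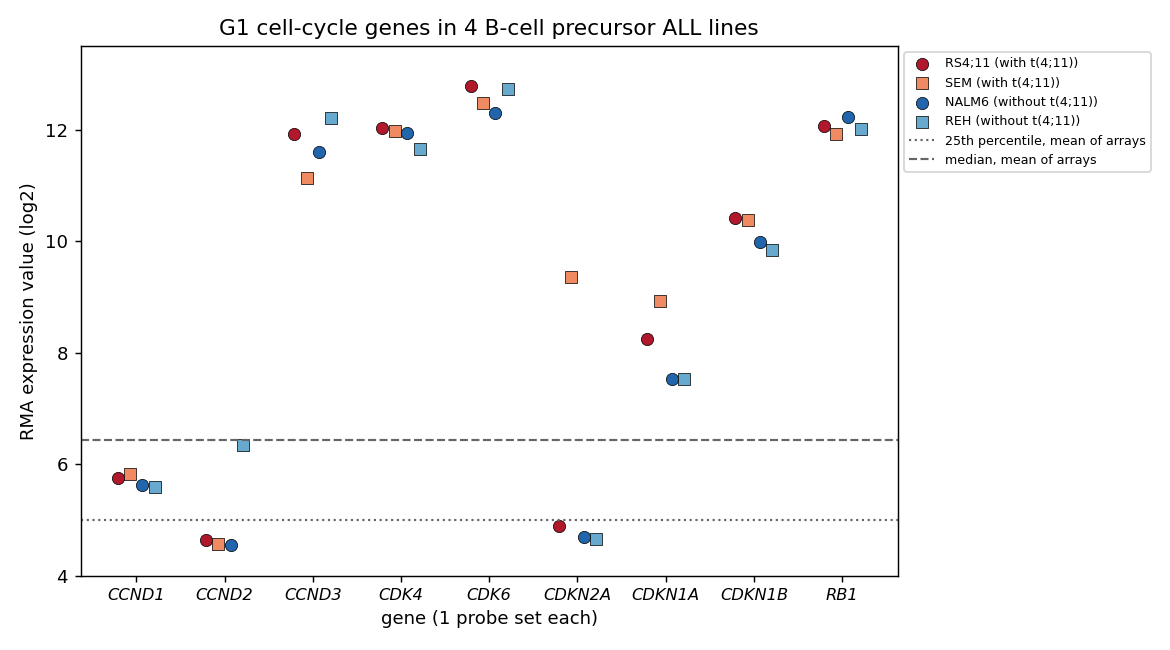
Expression value (log2, vertical axis) of each G1 gene (horizontal axis) in the 4 lines, 1 point per array, with the arrays' 25th percentile and median as dotted and dashed lines. CDKN2A reaches 9.35 in SEM and stays at or below 4.90 in the other lines, CCND2 reaches 6.34 in REH, and CDK4, CDK6 and RB1 vary by less than 0.5 between lines.

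CCND3, the D cyclin that B-cell precursors need to proliferate, was at 11.93 (RS4;11), 11.13 (SEM), 11.60 (NALM6) and 12.21 (REH). REH was highest and SEM lowest, 2.11-fold apart, and the groups overlapped, with RS4;11 between the lines that lack the translocation. The steps between neighbouring lines were 0.47 from SEM to NALM6, 0.32 from NALM6 to RS4;11 and 0.28 from RS4;11 to REH, and with 1 array per line none can be set against a spread of its own. The group means were 11.53 ± 0.56 (SD, n = 2) with the translocation and 11.91 ± 0.43 (SD, n = 2) without it, a difference of -0.38 (limma, SE 0.40, adjusted p = 0.792). Without SEM the difference was 0.02.

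CCND2, a D cyclin induced by mitogens and cytokines, was at 4.64 (RS4;11), 4.57 (SEM), 4.54 (NALM6) and 6.34 (REH). The first 3 values lay within 0.10 of each other below the 25th percentile of their arrays, and REH was 3.25-fold above the next line, though still below the median of its own array. The span of 1.80 lay at percentile 91.2 of all genes. A line was at least 2-fold above each of the other 3 in 2 of the 9 genes, CCND2 in REH and CDKN2A in SEM, against 5.72% of all genes. The group difference was -0.83 (SE 0.70, limma adjusted p = 0.754) and 0.07 without REH.

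CCND1, the D cyclin of most epithelial and many mantle cell tumours, was at 5.75 (RS4;11), 5.82 (SEM), 5.62 (NALM6) and 5.60 (REH). All 4 values lay between the 25th percentile and the median of their arrays. Both lines with the translocation were above both others, but the gap between the groups was 0.13, and the difference of 0.18 (SE 0.09) did not pass limma (adjusted p = 0.67).

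The D-cyclin partner CDK6, a kinase that is also prominent in leukaemias with rearranged MLL, was at 12.77 (RS4;11), 12.48 (SEM), 12.30 (NALM6) and 12.73 (REH). RS4;11 and REH, from different groups, were the highest and differed by 0.05, and the groups overlapped. The group difference was 0.11 (SE 0.22, limma adjusted p = 0.894), and it was -0.03 without RS4;11 and -0.10 without NALM6.

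CDK4, the other G1 kinase, was at 12.02 (RS4;11), 11.98 (SEM), 11.94 (NALM6) and 11.65 (REH). REH was 0.29 below NALM6, the next line, and the first 3 lines lay within 0.08. The groups did not overlap, by a margin of 0.03, with a difference of 0.20 (SE 0.14, limma adjusted p = 0.739). Both kinases were thus bright on each of the 4 arrays, and their spans of 0.37 and 0.48 lay at percentiles 48.5 and 58.0 of all genes.

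RB1, the pocket protein that holds E2F factors in check, was at 12.06 (RS4;11), 11.93 (SEM), 12.23 (NALM6) and 12.01 (REH). The span was 1.23-fold, with NALM6 highest and SEM lowest, and the groups overlapped. The difference was -0.13 (SE 0.13, limma adjusted p = 0.784).

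CDKN2A had the widest span of the 9 genes. It encodes 2 unrelated proteins from separate first exons, the CDK4 and CDK6 inhibitor p16 and the growth suppressor ARF. Its probe set lists transcripts of both in the platform annotation, so that the value does not tell them apart. The starts of both are shown because the difference between SEM and the other lines could concern either. Each line gives the 250 bases before a RefSeq start (GRCh38.p14, minus strand), 5′ to 3′, with the GC-box letters GGGCGG, searched on both strands, in capitals.
CDKN2A, start of the p16 transcript, chr9:21974858-21975107: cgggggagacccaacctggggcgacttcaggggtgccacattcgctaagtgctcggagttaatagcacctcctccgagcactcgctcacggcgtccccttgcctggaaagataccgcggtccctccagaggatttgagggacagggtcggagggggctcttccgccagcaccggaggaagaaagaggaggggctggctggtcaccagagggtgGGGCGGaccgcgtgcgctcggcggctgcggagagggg
CDKN2A, start of the ARF transcript, chr9:21995325-21995574: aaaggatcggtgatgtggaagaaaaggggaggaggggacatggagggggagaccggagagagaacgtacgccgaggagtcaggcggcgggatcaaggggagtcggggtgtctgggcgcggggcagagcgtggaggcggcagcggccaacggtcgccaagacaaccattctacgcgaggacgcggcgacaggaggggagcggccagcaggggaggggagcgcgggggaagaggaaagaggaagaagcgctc
The stretch before the p16 start holds 1 GC box and 20 CpG dinucleotides, and the stretch before the ARF start holds 0 GC boxes and 24 CpG dinucleotides. The median of all RefSeq stretches of this length is 11 CpG dinucleotides, and 42.6% of them hold a GC box. No methylation was measured here.

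The CDKN2A value was 4.90 (RS4;11), 9.35 (SEM), 4.69 (NALM6) and 4.66 (REH). SEM was 21.9-fold above RS4;11, 25.2-fold above NALM6 and 25.8-fold above REH, while the other 3 lay below the 25th percentile of their arrays and within 0.24 of each other. The span of 4.69 was at percentile 98.9 of all genes. The group difference of 2.45 (SE 1.73, limma adjusted p = 0.74) rested on SEM and was 0.22 without SEM and 4.67 without RS4;11. Group means were 7.12 ± 3.15 (SD, n = 2) with the translocation and 4.68 ± 0.03 (SD, n = 2) without it. SEM was at least 2-fold above every other line in 1 of the 9 genes and in 1.64% of all genes.

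Of the 4 listed neighbours of CDKN2A on chromosome 9, MTAP had the same pattern and the other 3 were dim in all lines. MTAP, an enzyme of methionine salvage that lies next to CDKN2A, was at 4.67 (RS4;11), 9.29 (SEM), 4.65 (NALM6) and 4.60 (REH). CDKN2B, the gene of the INK4 inhibitor p15 on the other side, lay between 4.70 and 4.93 in the 4 lines, and DMRTA1 and ELAVL2 beyond it between 4.30 and 4.83, all among the dim probe sets. A wider window, from the ribosomal protein gene RPS6 to the apoptosis regulator gene CAAP1, was chosen after its values were seen and holds 29 measured genes. In 5 of them SEM was at least 2-fold above every other line: FOCAD, HACD4, KLHL9, MTAP and CDKN2A. HACD4, a fatty acid elongation enzyme, was at 10.35 in SEM and at most 4.69 elsewhere. KLHL9, a substrate adaptor of a mitotic ubiquitin ligase, was at 10.01 in SEM and at most 4.86 elsewhere, and FOCAD was at 7.72 against at most 4.86. In RS4;11, NALM6 and REH these 5 genes lay between 4.57 and 4.90. The other 14 genes from FOCAD to CDKN2A, most of them type I interferon genes, lay between 4.15 and 5.97 in all 4 lines. At the edges of the window, RPS6 was at 12.94 to 13.09 and CAAP1 at 8.26 to 8.85, with no line standing apart 2-fold. DNA copy number was not measured here.

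**Figure D2:**
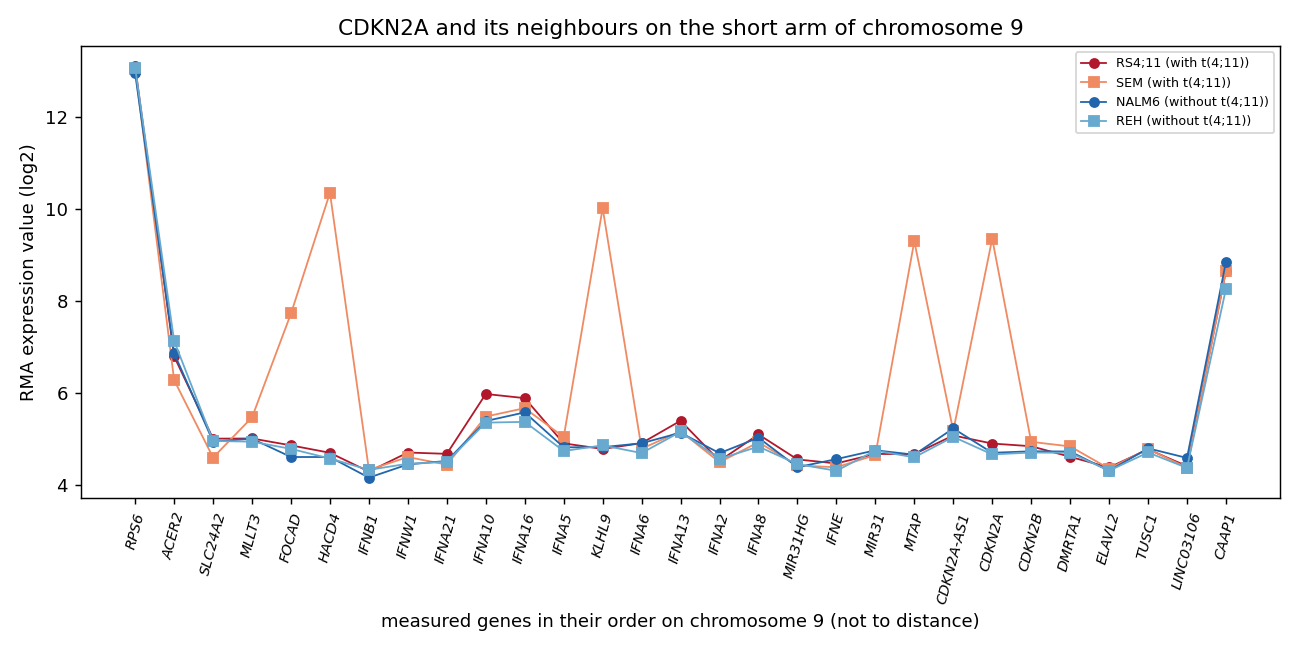
Expression value (log2, vertical axis) of 29 measured genes around CDKN2A in their order on chromosome 9 (horizontal axis, not to distance), 1 point per array and 1 joined series per line. SEM stands at 7.72 to 10.35 at FOCAD, HACD4, KLHL9, MTAP and CDKN2A, where RS4;11, NALM6 and REH stay between 4.57 and 4.90. At every other gene shown, most of them dim in all lines, the 4 lines differ by less than 2-fold.

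Elsewhere in the genome the profiles most like that of CDKN2A were those of HSPA4L, a heat shock protein gene, and PAWR, a pro-apoptotic gene. Likeness was the root mean square distance over the 4 lines after each gene was centred on its mean, 0.02 for HSPA4L and 0.04 for PAWR on the log2 scale. HSPA4L was at 4.64 (RS4;11), 9.08 (SEM), 4.47 (NALM6) and 4.44 (REH). PAWR was at 5.25, 9.79, 5.09 and 5.01 in the same order. Both were thus high in SEM and dim in the other lines. With 4 points a profile, this is a description.

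CDKN1A and CDKN1B, the CIP/KIP genes, were the members in which the groups stood most clearly apart. CDKN1A was at 8.25 (RS4;11), 8.92 (SEM), 7.53 (NALM6) and 7.52 (REH). NALM6 and REH were within 0.01 of each other, SEM was 1.59-fold above RS4;11, and RS4;11 in turn was 1.65-fold above NALM6, so that the groups did not overlap. Group means were 8.58 ± 0.47 (SD, n = 2) with the translocation and 7.53 ± 0.0023 (SD, n = 2) without it, 2.08-fold apart (difference 1.06, SE 0.27). The unadjusted p was 0.0247 and limma's adjusted p was 0.459, so that the difference did not pass over all genes. It was 0.72 without SEM and 1.39 without RS4;11.

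CDKN1B, the inhibitor that is kept up in resting lymphocytes, was at 10.41 (RS4;11), 10.37 (SEM), 9.99 (NALM6) and 9.84 (REH). The lines with the translocation lay within 0.04 of each other and 0.39 above NALM6, the next line. The means were 10.39 ± 0.03 (SD, n = 2) and 9.91 ± 0.10 (SD, n = 2), 1.39-fold apart (difference 0.48, SE 0.10, unadjusted p = 0.0141, limma adjusted p = 0.407). Leaving out each line in turn gave 0.41 to 0.55. The 250 bases before the RefSeq starts (GRCh38.p14, plus strand) are shown because these are the members that were higher with the translocation at an unadjusted p under 0.05, with GGGCGG on either strand in capitals.
CDKN1A, chr6:36678464-36678713: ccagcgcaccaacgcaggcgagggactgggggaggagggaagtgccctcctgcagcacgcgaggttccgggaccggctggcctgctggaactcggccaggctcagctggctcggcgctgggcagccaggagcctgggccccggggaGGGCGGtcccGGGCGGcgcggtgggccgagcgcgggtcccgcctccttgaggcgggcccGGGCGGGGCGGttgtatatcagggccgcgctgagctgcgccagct
CDKN1B, chr12:12717118-12717367: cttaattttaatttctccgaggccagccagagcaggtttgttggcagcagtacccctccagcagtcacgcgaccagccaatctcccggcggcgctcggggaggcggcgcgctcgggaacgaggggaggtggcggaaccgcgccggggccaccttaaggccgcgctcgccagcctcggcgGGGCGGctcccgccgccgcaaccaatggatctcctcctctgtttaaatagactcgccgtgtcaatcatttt
The CDKN1A stretch holds 4 GC boxes, of which a pair overlaps, and the CDKN1B stretch holds 1. RefSeq stretches were matched for 8 of the 10 genes, all but CCND1 and CCND2 and so with CDKN2C among them. Each start was counted once, so that a gene can enter several times, with 14 starts in all. Of these, 9 held a GC box, against 42.6% of all stretches, and 0 held TTTCCCGC, TTTGGCGC, TTTCGCGC or TTTGCCGC on either strand, forms of the E2F consensus, against 2.79%. The only stretch matched for RB1, chr13:48476200-48476449, holds 0 CpG dinucleotides, against a median of 11 over all stretches. It was not checked whether this stretch lies at the main start of RB1, so that it does not describe the main promoter. The counts cover the matched starts only, and other starts of these genes were not searched. A match is a description of letters and not of a bound site.

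Between the groups, 0 of the 9 genes passed limma at an adjusted p under 0.05, against 0.0218% of all genes (4 genes). At an unadjusted p under 0.05 there were 2, CDKN1A and CDKN1B, both higher with the translocation, against 9.39% of all genes in either direction and 4.6% in that direction. The groups did not overlap in 5 of the 9 (CCND1, CDK4, CDKN2A, CDKN1A and CDKN1B), against 42.8% of all genes, a share near that background. All 5 were higher with the translocation, which was so for 23.0% of all genes. The gap was 0.72 for CDKN1A and 0.39 for CDKN1B. For CDK4 it was 0.03, between SEM and NALM6, whose array medians were 6.46 and 6.40. For CCND1 it was 0.13, with all values below the array medians. For CDKN2A it was 0.20, between values of RS4;11 and NALM6 near the array floor. The groups were at least 2-fold apart at their nearest lines in 0 of the 9 and in 1.84% of all genes. The median difference was 0.18 for the 9 genes and 0.01 over all genes. An exact permutation test of 1 gene cannot go below p = 0.333 with 2 lines against 2.

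**Figure D3:**
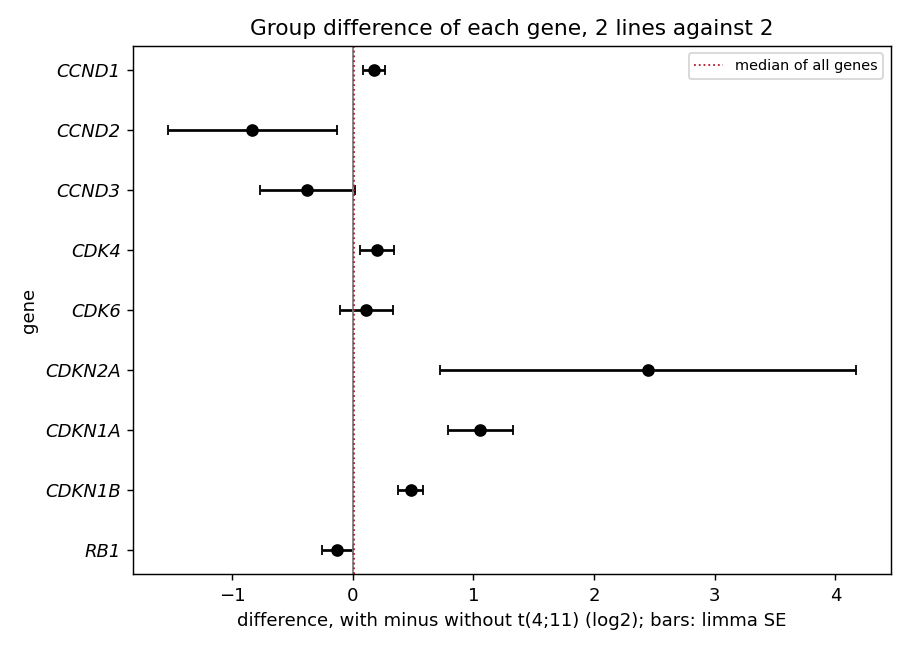
Difference between the group means of each G1 gene (horizontal axis, log2, lines with minus lines without the translocation, n = 2 each), with limma's SE as bars and the median of all genes as a dotted line. CDKN2A has the largest difference, 2.45, with the widest bar (SE 1.73), and CDKN1A and CDKN1B lie at 1.06 and 0.48.

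Set line against line, the 9 genes differed most between SEM and REH, with 4 genes at least 2-fold apart (11.2% of all genes). CCND2 and CCND3 were higher in REH, and CDKN2A and CDKN1A in SEM. SEM and NALM6 differed at least 2-fold in 2, CDKN2A and CDKN1A (9.28% of all genes). Of the pair with the translocation, RS4;11 and SEM differed in CDKN2A (1 of 9 genes, 6.0% of all genes). Of the pair without it, NALM6 and REH differed in CCND2 (1 of 9, 8.62%), which also set RS4;11 apart from REH (1 of 9, 9.62%). RS4;11 and NALM6, although from different groups, differed at least 2-fold in 0 of the 9 genes (7.84% of all genes), the widest being CDKN1A at 1.65-fold. REH was the lowest line in 5 of the 9 genes (33.7% of all genes), by 0.29 for CDK4, 0.14 for CDKN1B and less than 0.04 for CCND1, CDKN2A and CDKN1A.

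Other genes around the G1 switch were read from 11 lists of the pathway with 97 genes, of which 93 were measured. Over these, 0 passed limma's adjusted threshold in either direction. By the unadjusted p under 0.05, 6 were higher and 4 lower with the translocation, 10.8% of the 93 beside 9.39% of all genes. The median difference of the 93 genes was 0.04. Of the remaining inhibitors, CDKN2D lay between 6.40 and 6.72 and CDKN1C between 6.54 and 6.66, below the dim limit of 6.75. CDKN3, a phosphatase that acts on CDK1 and CDK2, lay between 10.06 and 10.88, a span at percentile 75.7 of all genes.

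Among the E and A cyclins with CDK2 (8 measured), which take over from the D cyclins, the median difference was -0.0038 and 1 was lower at an unadjusted p under 0.05, the phosphatase gene CDC25B. CCNA1, a cyclin A otherwise typical of the testis and of myeloid leukaemia, was at 4.82 (RS4;11), 10.03 (SEM), 4.59 (NALM6) and 4.49 (REH). It was the member of these lists with the widest span, 5.53, and like CDKN2A it was high in SEM and dim elsewhere. CCNE1, the cyclin E gene downstream of E2F, was at 8.34, 6.91, 7.89 and 8.45 in the same order and lowest in SEM. CDK2 and CCNA2 varied by 0.19 and 0.27 over the lines.

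The E2F and DP factors (10 measured) included the 1 gene of the 93 whose groups stood at least 2-fold apart. TFDP2, a dimer partner of E2F proteins, was at 10.31 (RS4;11), 9.73 (SEM), 12.42 (NALM6) and 12.40 (REH). Its means were 5.23-fold apart (difference -2.39, SE 0.24, unadjusted p = 0.0014, limma adjusted p = 0.207). The sister gene TFDP1 was at 12.61, 12.04, 11.82 and 11.93 in the same order. E2F7, a repressor of E2F targets, was higher at an unadjusted p under 0.05 (difference 0.44, adjusted p = 0.434). E2F1 and E2F2 were lowest in SEM, at 8.30 and 9.05, against at least 8.91 and 10.05 in the other lines. The RB1 relatives RBL1 and RBL2 differed by 0.14 (SE 0.11) and -0.32 (SE 0.22).

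The genes that E2F switches on for replication (19 of 20 measured) were close to level, with a median span of 0.26 over the lines, below the 0.38 of all genes, and a median difference of 0.10. MCM2 and MCM4, subunits of the replicative helicase, were higher at an unadjusted p under 0.05 (differences 0.32 and 0.51, adjusted p = 0.5 and 0.422). GINS2, a subunit of the same helicase complex, had the widest span of the list, 1.02, at 11.74 (RS4;11), 11.76 (SEM), 10.74 (NALM6) and 11.50 (REH). Its difference of 0.63 (SE 0.31) was the largest of the list and did not pass (limma adjusted p = 0.655). TYMS and RRM1, which make deoxynucleotides, varied by less than 0.08. The list for the DREAM complex, which silences cell-cycle genes in quiescence, also held MYBL2 and FOXM1, which are not subunits of it. The median span of that list was 0.24 (7 measured), with 0 genes at an unadjusted p under 0.05. Of the CDK-activating kinase, CDK7 and CCNH differed by -0.03 and -0.18, and the assembly factor MNAT1 by -0.91 (SE 0.27, adjusted p = 0.501).

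Among genes of cyclin and inhibitor degradation (14 measured), 2 were higher and 1 was lower at an unadjusted p under 0.05. FBXO4, a reported adaptor of a D-cyclin ubiquitin ligase, was at 8.32 (RS4;11), 8.81 (SEM), 7.69 (NALM6) and 7.42 (REH) (difference 1.01, SE 0.23, limma adjusted p = 0.423). SKP1, a core subunit of SCF ligases, differed by 0.55 (adjusted p = 0.327), and FBXW7, the adaptor for cyclin E, by -0.45 (adjusted p = 0.41). SKP2, which brings p27 to degradation, varied by 0.14 over the lines and differed by 0.02 (SE 0.11).

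Genes of the DNA damage and stress response beside CDKN1A (11 of 13 measured) did not share its direction as a list, with a median difference of -0.14 and 1 gene higher at an unadjusted p under 0.05. That gene was SESN1, a stress-induced inhibitor of mTORC1 signalling, at 9.10 (RS4;11), 9.44 (SEM), 7.26 (NALM6) and 8.20 (REH) (difference 1.54, SE 0.40, adjusted p = 0.459). MDM2, a ubiquitin ligase gene, was at 12.12, 11.49, 12.25 and 12.77 in the same order, lowest in SEM, where CDKN1A was highest. GADD45A was at 6.94, 6.12, 7.70 and 6.86, and BAX varied by 0.37 over the lines. TFDP2, SESN1, CCNA1, IKZF3, FOXO1, MTAP and the other listed neighbours of CDKN2A were named by rule, and the other genes named from these lists were chosen after their values were seen.

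**Figure D4:**
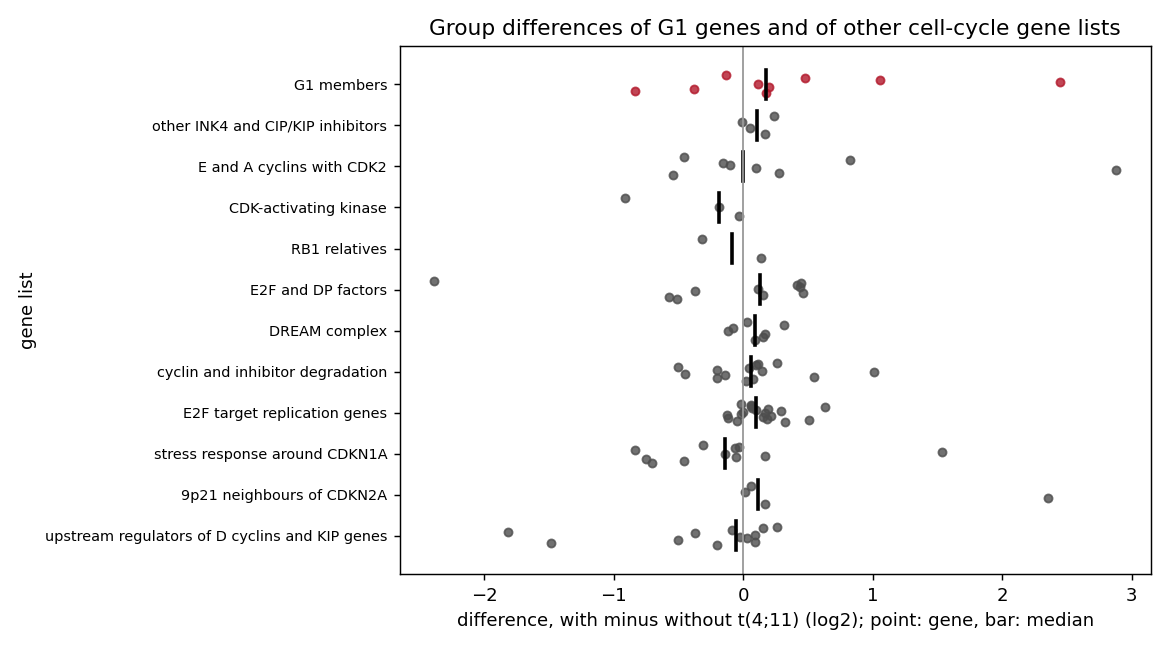
Difference between the groups (horizontal axis, log2, lines with minus lines without the translocation) of each G1 gene and of each gene in 11 pathway lists (rows), with 1 point per gene and a bar at each list's median. The medians of the lists lie within 0.2 of 0, and CCNA1 (2.88), CDKN2A (2.45), MTAP (2.35) and TFDP2 (-2.39) lie farthest from it.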

How the data were processed

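RNA of each line was labelled for an Affymetrix whole-transcript array. Per the submitters' processing notes, RMA and Partek were used on the arrays. RMA corrects background, normalizes by quantiles and summarises each probe set, and the values deposited by the authors were taken as log2 from their range. No version, role or annotation build was given. RMA removes array-wide differences in total signal and gives no detection call. The number of arrays limits the precision.

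Of 32968 probe sets, the platform annotation names 1 gene for 19310, several for 1752 and none for 11906. By Entrez ID 19279 matched RefSeq (GRCh38.p14). The probe set with the highest mean stood for a gene. Groups follow the labels. Differences were fitted with limma 3.58.1 (lmFit, eBayes) in R 4.3.3 without covariates, two-sided, with Benjamini-Hochberg adjustment over all 18377 genes. Percentages of all genes come from the same table. The procedure was tested on simulated data. Python 3.11.15, pandas 2.3.3 and matplotlib 3.10.9 made the tables and plots.

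The genes, lists and tests were chosen with earlier results of these data known. The naming rule took all members, up to 3 genes per list with the widest span of at least 4-fold, every 9p21 neighbour listed and the 2 profiles nearest to a member of such a span. Alternatives were other scalings, probe set summaries, variance models, a filter on dim genes and leaving out each line. Some markers and pathway genes are not reported here.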

Additional observations from a re-analysis of the deposited data

How the results depend on the processing

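No member passed limma under any of the alternatives or with any line left out. The count over all genes was 4, and it was 17 without dim genes, 9 when quantiles were normalized again, 12 with all probe sets tested, 0 without moderation of variances, 28 after centring on gene medians (chosen after seeing the data), and 0 with any of the lines left out. Members at least 2-fold apart between the groups numbered 0 to 2 with a line left out, namely 2 without RS4;11 and 1 without NALM6, as fewer lines then had to be parted. The count spanning at least 4-fold was 0 to 1 with a line left out, 0 without SEM, and 4 when 2-fold was enough. With a line left out the difference ran from -1.73 to 0.067 for CCND2, from -0.78 to 0.020 for CCND3 and from -0.10 to 0.33 for CDK6, and for the 6 other members it kept its sign. Under the other alternatives all members tested kept theirs. Of these, only the other scalings could alter a member's difference. Each member had 1 probe set, and the rest changed only the variances or which other genes and probe sets entered. The adjusted p under these alternatives lay between 0.42 and 0.674 for CDKN1A and between 0.382 and 0.633 for CDKN1B. In limma's fit without moderation of variances the unadjusted p was 0.0868 for CDKN1A, 0.0235 for CDKN1B and 0.0447 for CCND1. With all 4 lines kept, the remaining alternatives left the unadjusted p of CDKN1A and CDKN1B under 0.05. The filter on dim genes removed CCND1 and CCND2. No paired analysis was possible because the labels give no replicate numbers. Signal over background is unknown for each probe set, which limits CCND1, CCND2 and the CDKN2A value of 3 lines.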

Other observations

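Regulators that act upstream of the D cyclins and the KIP genes (12 of 13 measured) were described beside the G1 genes. At an unadjusted p under 0.05 there were 0 of them in limma's fit, and 0 passed after adjustment. Their median difference was -0.05. FOXO1, a transcription factor that induces CDKN1B in resting cells, was at 8.77 (RS4;11), 7.60 (SEM), 9.24 (NALM6) and 10.09 (REH) (difference -1.48, SE 0.57, limma adjusted p = 0.582). Both lines with the translocation lay below both others, whereas for CDKN1B both lay above, and a link between these genes was not tested. IKZF3, the Ikaros relative Aiolos, which restrains the proliferation of B-cell precursors, was at 10.02 in NALM6 and between 5.21 and 6.06 in the other lines. IKZF1 was at 11.57 (RS4;11), 10.05 (SEM), 10.99 (NALM6) and 11.37 (REH). PAX5 varied by 0.29 over the lines, and GSK3B, the kinase that marks cyclin D1 for degradation, by 0.43.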
